A study of Mus musculus with 12 samples.

Results

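The genes described are 10 that let neutrophils sense microbial products, namely the Toll-like receptors Tlr1, Tlr2, Tlr4, Tlr6, Tlr7, Tlr9 and Tlr13, the co-receptor Cd14, the adaptor Myd88 and the inhibitory kinase Irak3. They were chosen by name as members of this pathway, with earlier results of these data known, and each was read by 1 of the 28944 transcript clusters tested, so that they are 10 genes of 28944 clusters. Their RNA was measured in bone marrow neutrophils of C57BL/6 wild-type (WT) mice and of mice homozygous for the Card9tm1Jrld deletion, backcrossed to C57BL/6 (Card9-/-). The cells stood for 4 h at 37 °C on a control surface coated with human serum albumin alone, or on the same coating carrying antibody against it, an immobilized immune complex (IC). Cells were isolated from femurs and tibias on a Percoll gradient, the labels give them as Ly6G-positive, and adherent and nonadherent cells were combined before RNA isolation. Each of 3 experiments held 1 array of each of the 4 groups, giving 3 arrays per group and 12 in all. The study's methods give its mice as adults of both sexes, and the sources used here do not say whether an array held cells of 1 mouse or of several.

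Toll-like receptors are membrane proteins that recognise conserved parts of microbes. TLR2 pairs with TLR1 or TLR6 at the cell surface to bind bacterial lipopeptides, and TLR4, with MD-2 and the lipid-binding co-receptor CD14, binds lipopolysaccharide. TLR7, TLR9 and TLR13 lie in endosomes and sense single-stranded RNA, unmethylated CpG DNA and bacterial ribosomal RNA. All of these receptors use the adaptor MyD88, which recruits IRAK kinases and leads to NF-κB activation, while IRAK3 (IRAK-M) restrains this step. CARD9 belongs to another route to NF-κB, downstream of receptors that signal through the kinase Syk, among them Fc receptors for immune complexes. Neutrophils are known to carry most Toll-like receptors and to respond to their ligands.

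Stretches of the promoters are shown because the 2 routes meet on NF-κB. A link between a motif and the signals below was not tested. Promoter windows from RefSeq (build GRCm38.p6, 250 bases before to 50 after a start site) were matched for 7 of the 10 genes in 10 windows, and were searched on both strands for 4 motifs. Windows of Tlr4, Tlr7 and Cd14 were not used here. The NF-κB (kB) consensus was in the window of Tlr2 and in 4.51% of all 32851 windows. The core bound by interferon-regulatory factors, GAAA followed after any 2 bases by GAAA, was in a window of Tlr6 and in that of Myd88, and in 3.44% of all windows. The AP-1 motif TGANTCA was in the Tlr9 window and in 7.81% of all windows. The PU.1 core AGAGGAAG was in the windows of Tlr9 and Tlr13 and in 4.55% of all windows. The sequences run 5′ to 3′ on the strand of the gene, with the matching bases in capitals, and lie before the start site of a gene on the minus strand (Tlr2, at chr3:83841751-83841801; Tlr6, at chr5:64959247-64959302; Myd88, at chr9:119340029-119340078) or on the plus strand (Tlr9, at chr9:106222520-106222566).
Tlr2, kB consensus: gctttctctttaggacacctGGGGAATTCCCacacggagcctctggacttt
Tlr6, interferon-regulatory factor core: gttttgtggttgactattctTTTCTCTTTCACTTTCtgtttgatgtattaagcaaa
Myd88, interferon-regulatory factor core: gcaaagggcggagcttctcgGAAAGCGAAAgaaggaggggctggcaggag
Tlr9, AP-1: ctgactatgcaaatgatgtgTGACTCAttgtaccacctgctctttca
In Tlr2 the match reads as the kB consensus on both strands, as 2 overlapping matches. In Tlr6 the core is on the opposite strand, also in 2 overlapping matches. A match is a description of the letters and not of binding.

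The signals are log2 values per transcript cluster, so that a difference of 1 is a doubling of signal. The array medians were 5.70 to 5.75 in experiment 1, 5.86 to 5.93 in experiment 2 and 5.27 to 5.39 in experiment 3. All 13 neutrophil markers were measured and above the median of the arrays, at a median percentile of 99.57. Card9 itself was at 8.42, 8.43 and 8.75 in WT cells against 6.39, 5.94 and 5.70 in Card9-/- cells when neither met IC, and was lower in Card9-/- cells on both surfaces (−2.52 on the control surface and −2.27 on IC, limma adjusted p = 0.00229 and 0.00491). Of the other cell types, the B cell list (9 of 10 genes measured) was higher in Card9-/- cells by a median of 0.52 on the control surface and 0.65 on IC. Its medians in experiments 1, 2 and 3 were 1.13, 0.014 and 0.36 on the control surface and 1.36, 0.071 and 0.53 on IC. The monocyte and macrophage list (10 of 12 measured, 5 of them above the array median) had median differences of −0.14 and −0.18. The eosinophil, basophil and mast cell list (9 of 9 measured) was higher by a median of 0.31 on the control surface and 0.38 on IC. Its medians in experiments 1, 2 and 3 were −0.24, 0.053 and 0.91 on the control surface and −0.087, 0.15 and 0.86 on IC. The part of these lists in the results below was not tested. In RNA from a population of cells, fewer cells of a type and less RNA per cell cannot be told apart.

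The experiments were not alike in level for these genes. In experiment 3, 9 of the 10 genes were below the mean of the other experiments, as were 82% of all clusters. The shift was below −1 on the log2 scale for 7 of the 10 genes and for 14.4% of all clusters. The shift of the median cluster was −0.51. The shift was −1.97 for Tlr7, −1.81 for Tlr13 and −1.67 for Tlr9. Cd14 went the other way, with means of 9.60, 11.13 and 11.49 in experiments 1, 2 and 3. The arrays were therefore compared within experiments, and every difference given is the mean of 3 differences between arrays of the same experiment. The p values come from limma across all 28944 clusters with the Benjamini-Hochberg adjustment. They rest on the variation left after the level of each experiment was taken out, that is, on how group differences varied over these experiments. Every value after ± is the SE of the limma fit, with n the number of experiments. This SE rests on the residuals of all arrays, drawn toward the spread of all clusters. For a given gene it is therefore the same in each comparison of a pair of groups. It is not the SE of the 3 differences listed beside it.

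**Figure D1:**
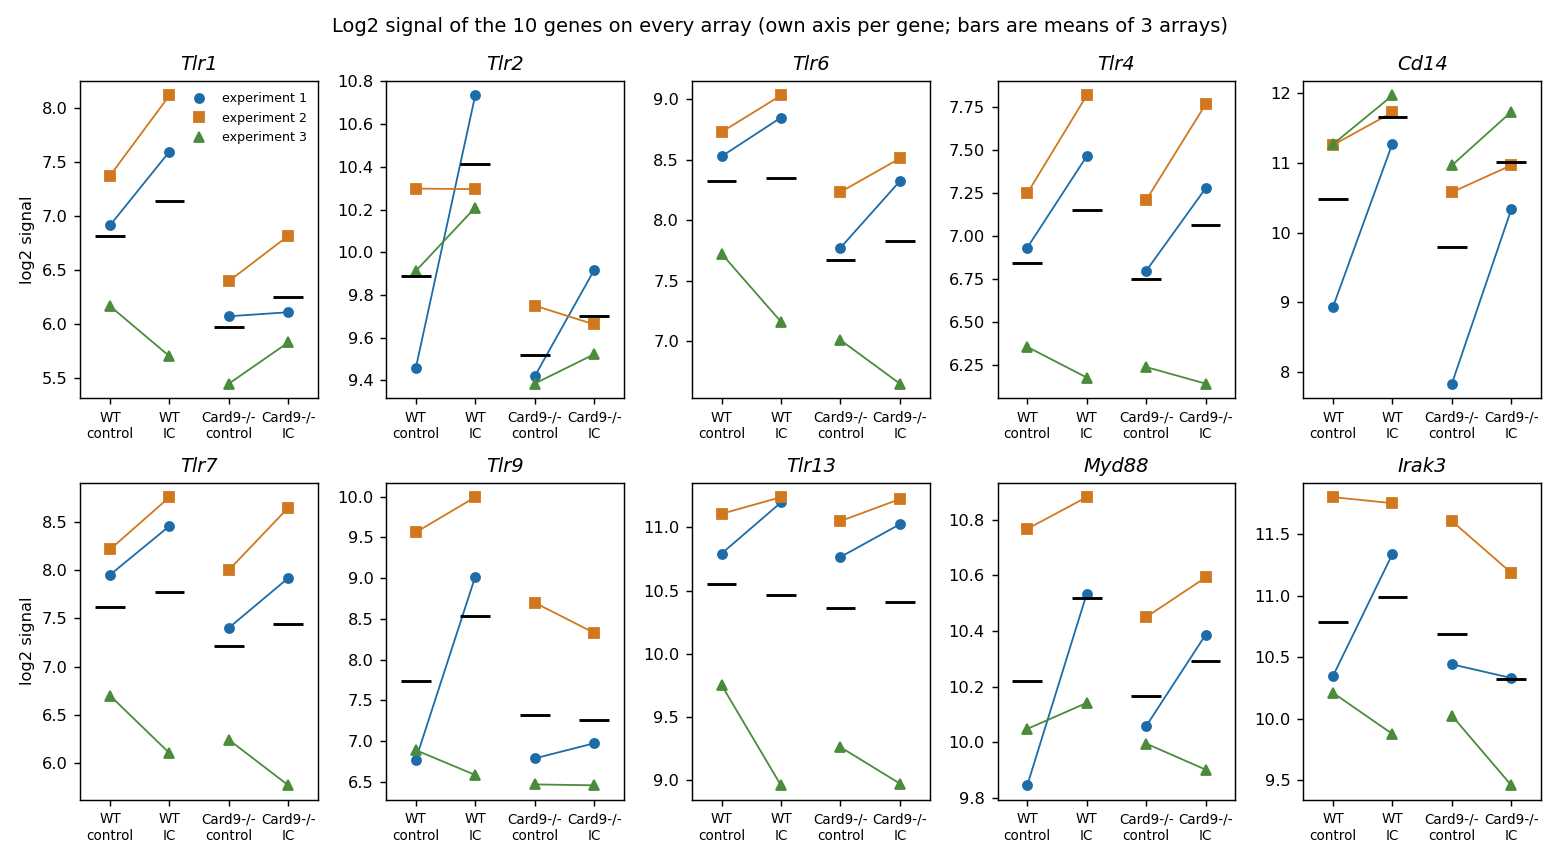
Log2 signal of each of the 10 genes (own vertical axis) in the 4 groups on the horizontal axis. Points are single arrays, with color and shape for the experiment, lines join the control and IC arrays of an experiment and a genotype, and black bars are means of 3 arrays. Experiment 3 lies lowest in most panels and highest in that of Cd14.

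On IC against the control surface, Cd14 was the gene of the 10 with the largest mean difference. For every receptor but Tlr2 the mean differences were smaller than the range of its experiment means. In WT cells, 9 of the 10 genes had a mean above 0, with a median of 0.30 against 0.039 for all clusters, and in Card9-/- cells 8 had, with a median of 0.17 against −0.011. None of the 10 passed an adjusted p of 0.05 in either genotype. No cluster of the whole array did so (0% in WT and 0% in Card9-/- cells), while 9.59% of all clusters in WT and 3.01% in Card9-/- cells had an unadjusted p under 0.05. Of the 10 genes, Cd14 and Tlr2 were under that level in WT cells, and Cd14 in Card9-/- cells. The medians of the 10 genes in experiments 1, 2 and 3 were 0.69, 0.37 and −0.32 in WT cells and 0.40, 0.23 and −0.095 in Card9-/- cells. In WT cells 10, 8 and 3 genes were above 0 in the respective experiments, and in Card9-/- cells 9, 7 and 3 were.

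Cd14 encodes the protein that hands lipopolysaccharide to TLR4 and serves other receptors as well. Its signals in WT cells were 8.93, 11.26 and 11.27 on the control surface and 11.28, 11.73 and 11.97 on IC in experiments 1, 2 and 3. Without Card9 they were 7.83, 10.58 and 10.97 on the control surface, and 10.34, 10.97 and 11.74 on IC. In WT cells the IC arrays thus lay above all control arrays, by a narrow margin, as did those of 0.902% of all clusters, and in Card9-/- cells the groups overlapped. Cd14 was higher on IC in each of the 6 pairs of arrays, as were 3.1% of all clusters. The differences were 2.35, 0.47 and 0.70 in WT cells, with a mean of 1.17 ± 0.40 (SE, n = 3), a 2.25-fold higher signal (limma adjusted p = 0.438). In Card9-/- cells they were 2.51, 0.39 and 0.77, with a mean of 1.22 ± 0.40 (SE, n = 3; limma adjusted p = 0.9998). Without experiment 1 the means were 0.59 and 0.58. The responses of the 2 genotypes differed by 0.049 (95% interval −1.19 to 1.29), an interval that holds differences as large as the response itself.

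Among the surface receptors, Tlr2 had signals of 9.46, 10.30 and 9.91 on the control surface and 10.73, 10.30 and 10.21 on IC in WT cells. Those of Card9-/- cells were 9.42, 9.75 and 9.39 on the control surface, and 9.92, 9.66 and 9.52 on IC. The WT difference of 0.52 ± 0.20 (SE, n = 3; limma adjusted p = 0.467) was made up of 1.28, −0.0024 and 0.30, and without experiment 1 it was 0.15. The difference in Card9-/- cells was 0.18, made up of 0.50, −0.088 and 0.14. In experiment 1 the WT control array was the lowest and the WT IC array the highest of their groups. Tlr4 had nearly the same mean difference in both genotypes, 0.31 in WT and 0.31 in Card9-/- cells, with 0.53, 0.57 and −0.18 in WT and 0.48, 0.56 and −0.097 in Card9-/- cells. The responses of Tlr4 differed between genotypes by 0.0060 (95% interval −0.49 to 0.50).

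Tlr1 and Tlr6, which encode the alternative partners of TLR2 and have no protein-coding gene between them in the annotation, were both higher on IC in experiments 1 and 2 in either genotype. For Tlr1 the WT differences were 0.68, 0.74 and −0.46 and those in Card9-/- cells 0.037, 0.42 and 0.38. For Tlr6 they were 0.32, 0.30 and −0.56 in WT and 0.55, 0.28 and −0.36 in Card9-/- cells. Experiment 3 thus had the opposite sign for Tlr6 in both genotypes and for Tlr1 in WT cells only, by values that were not tested against each other. The small mean of Tlr6 in WT cells, 0.020, was negative with the arrays centred on their medians (−0.034) and without experiment 1 or 2 (−0.13 and −0.12).

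The endosomal receptors Tlr7, Tlr9 and Tlr13 were each higher on IC in WT cells in experiments 1 and 2 and lower in experiment 3. Tlr9 had WT signals of 6.77, 9.56 and 6.89 on the control surface and 9.02, 9.99 and 6.58 on IC. Its Card9-/- signals were 6.79, 8.70 and 6.47 on the control surface, and 6.97, 8.33 and 6.46 on IC. The WT differences for Tlr9 were therefore 2.24, 0.43 and −0.31, with a mean of 0.79 ± 0.38 (SE, n = 3; limma adjusted p = 0.536), and the groups overlapped. The mean in WT cells was 1.34 without experiment 3 and 0.063 without experiment 1. In Card9-/- cells the mean for Tlr9 was −0.065, from 0.19, −0.37 and −0.011, and it was 0.087 without experiment 2. Tlr7 had WT differences of 0.51, 0.54 and −0.60 and Card9-/- differences of 0.52, 0.65 and −0.47. Tlr13 had 0.41, 0.13 and −0.79 in WT cells and 0.26, 0.17 and −0.29 in Card9-/- cells. The means of these 2 genes lay between −0.086 and 0.23 and turned their sign in some settings (Tlr7 in WT cells without experiment 1, −0.028, or 2, −0.045; Tlr13 in WT cells without experiment 3, 0.27, or after quantile normalization, 0.024; Tlr13 in Card9-/- cells without experiment 1, −0.057, or 2, −0.015).

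Myd88, the shared adaptor, was higher on IC in all 3 WT experiments (0.69, 0.11 and 0.093), with a mean of 0.30 ± 0.14 (SE, n = 3; limma adjusted p = 0.533). Only Cd14 and Myd88 of the 10 genes were higher in 3 of 3 WT experiments, as were 18.8% of all clusters. In Card9-/- cells Myd88 had differences of 0.33, 0.14 and −0.093, and Cd14 and Tlr1 were the genes higher in 3 of 3 experiments, as were 11.5% of all clusters. In WT cells the share of the 10 genes was thus close to that of all clusters.

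Irak3, whose product holds back signalling from MyD88, had WT signals of 10.35, 11.80 and 10.21 on the control surface and 11.34, 11.75 and 9.88 on IC. Its Card9-/- signals were 10.44, 11.61 and 10.03 on the control surface, and 10.33, 11.19 and 9.46 on IC. In Card9-/- cells its differences between IC and the control surface were −0.11, −0.42 and −0.57 (mean −0.37 ± 0.20, SE, n = 3; limma adjusted p = 0.9998). In WT cells the differences were 0.99, −0.049 and −0.33, and the mean of 0.20 was −0.19 without experiment 1.

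**Figure D2:**
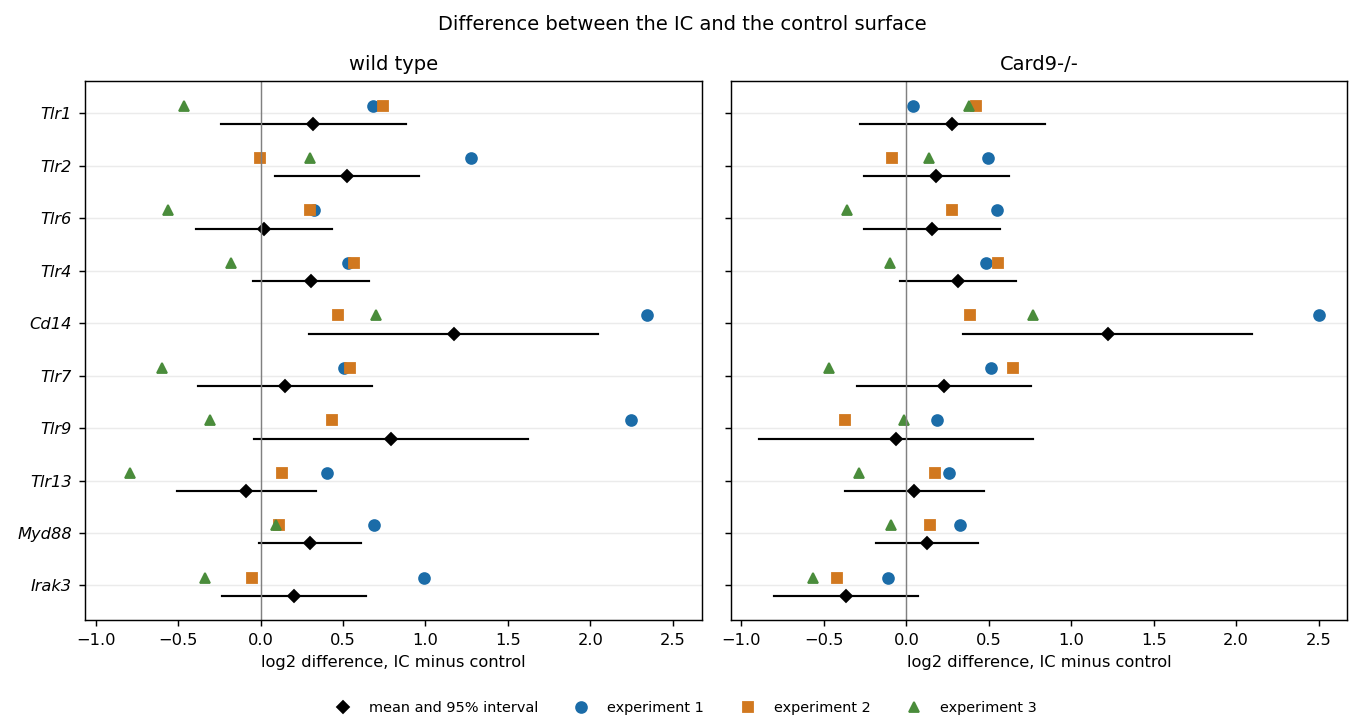
Log2 signal on IC minus that on the control surface (horizontal axis) for the 10 genes in WT (left) and Card9-/- cells (right). Colored points are the 3 experiments, diamonds their means and lines the 95% intervals of limma. Cd14 lies to the right of 0 in all experiments of both genotypes, and the triangles of experiment 3 lie left of 0 for 7 genes in each genotype.

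The next question was whether the response to IC depended on Card9. The difference between the 2 responses, Card9-/- minus WT, had a median of −0.017 over the 10 genes, against −0.030 for all clusters. No gene of the 10 and no cluster of the array passed the adjusted threshold (0%), and none of the 10 had an unadjusted p under 0.05, as 3.68% of all clusters did. Tlr2 and Irak3 were below 0 in 3 of 3 experiments, as were 16.6% of all clusters. The differences of Tlr7 were 0.010, 0.10 and 0.13. For Irak3 the differences were −1.10, −0.37 and −0.23, with a mean of −0.57 ± 0.28 (SE, n = 3; 95% interval −1.19 to 0.049; limma adjusted p = 0.9992). For Tlr2 they were −0.78, −0.085 and −0.16. The largest mean, that of Tlr9, was −0.86 (95% interval −2.03 to 0.32), from −2.06, −0.80 and 0.29. The small differences of Tlr1, Tlr4, Tlr13 and Cd14 turned their sign when 1 experiment was left out, in some cases also with another scaling. The intervals of all 10 genes hold 0.

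Card9-/- cells had the lower mean for each of the 10 genes on either surface. The median cluster differed by 0.026 on the control surface and −0.014 on IC. Each gene gave 6 comparisons of a Card9-/- with a WT array within an experiment and surface. The 10 genes share these arrays and are not separate observations. Tlr2, Tlr4, Tlr6, Tlr7 and Cd14 were below 0 in 6 of 6, as were 4.28% of all clusters, and the other 5 genes in 5 of 6. None of the 10 passed the adjusted threshold on either surface. The means of the 4 groups were highest in WT cells on IC for 9 genes, all but Tlr13, and lowest in Card9-/- cells on the control surface for 8, all but Tlr9 and Irak3. The shares of all clusters with these orders, or below 0 in 5 of 6, were not counted. For each of the 10 genes, the arrays of groups that follow each other in the order of their means overlapped. The responses and the genotype comparisons share arrays, and the values of each are given side by side without a test across them.

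On the control surface the median of the 10 genes was −0.39, against 0.026 for all clusters. The adjusted threshold was passed by 0.038% of all clusters and the unadjusted level of 0.05 by 4.64%. Tlr6 and Tlr1 were the 2 genes of the 10 under the unadjusted level. Of the 10 genes, 7 were below 0 in 3 of 3 experiments, against 12.8% of all clusters. The medians of the 10 genes were −0.087, −0.41 and −0.44 in experiments 1, 2 and 3, and those of all clusters −0.0040, 0.026 and 0.043. The mean of Myd88, −0.052, was 0.080 without experiment 2.

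Tlr6 had signals on the control surface of 8.53, 8.73 and 7.72 in WT and 7.77, 8.23 and 7.01 in Card9-/- cells. On IC the signals were 8.85, 9.03 and 7.16 in WT and 8.32, 8.51 and 6.65 in Card9-/- cells. The groups overlapped because of the low experiment 3, while the differences within an experiment hardly varied. They were −0.76, −0.50 and −0.71 on the control surface, a mean of −0.66 ± 0.19 (SE, n = 3; limma adjusted p = 0.931). On IC they were −0.53, −0.52 and −0.51, a mean of −0.52 ± 0.19 (limma SE, n = 3; limma adjusted p = 0.407). The SE of 0.19 is that of the fit to all arrays and is wider than the spread of these differences.

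Tlr1 had signals on the control surface of 6.91, 7.37 and 6.17 in WT and 6.07, 6.40 and 5.45 in Card9-/- cells. On IC the signals were 7.60, 8.12 and 5.70 in WT and 6.11, 6.82 and 5.83 in Card9-/- cells. The control differences were of similar size, −0.84, −0.98 and −0.72, with a mean of −0.84 ± 0.26 (SE, n = 3; limma adjusted p = 0.939). On IC they were −1.49, −1.30 and 0.13, with a mean of −0.89 ± 0.26 (SE, n = 3; limma adjusted p = 0.255). Without experiment 3 the IC mean of Tlr1 was −1.39, and it then passed the threshold (limma adjusted p = 0.0118). It was −0.59 without experiment 1 and −0.68 without experiment 2 (limma adjusted p = 0.945 and 0.77). Without experiment 2, Card9 itself did not pass on IC either (−2.31, limma adjusted p = 0.202).

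On IC the median of the 10 genes was −0.58, against −0.014 for all clusters. The adjusted threshold was passed by 0.162% of all clusters, and the unadjusted level of 0.05 by 9.13%. Of the 10 genes, 5 were under the unadjusted level, namely Tlr2, Tlr1, Tlr9, Irak3 and Tlr6. All genes but Tlr1 and Tlr13 were below 0 in 3 of 3 experiments, 8 of 10 against 15.4% of all clusters. The medians of the 10 genes were −0.68, −0.54 and −0.24 in experiments 1, 2 and 3.

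Tlr2 was the gene whose WT and Card9-/- arrays on IC did not overlap, at 10.21 to 10.73 in WT and 9.52 to 9.92 in Card9-/- cells, and 1.03% of all clusters were separated in this direction. Its differences were −0.82, −0.63 and −0.69, with a mean of −0.71 ± 0.20 (SE, n = 3), a signal 1.64-fold lower (limma adjusted p = 0.238). With the arrays of the IC surface fitted alone, the mean was the same and the threshold was passed (limma adjusted p = 0.0433). On the control surface the Tlr2 differences were −0.039, −0.55 and −0.53.

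Tlr9 had the largest mean difference on IC, −1.28 ± 0.38 (SE, n = 3), a signal 2.43-fold lower (limma adjusted p = 0.272). It was made up of −2.04 and −1.67 in experiments 1 and 2 and of −0.13 in experiment 3, and was −1.85 without experiment 3 and −0.90 without experiment 1. On the control surface the differences of Tlr9 were 0.014, −0.86 and −0.42. The other endosomal receptors differed by less on IC, Tlr7 by −0.33 (−0.54, −0.11 and −0.33) and Tlr13 by −0.058 (−0.17, −0.015 and 0.014).

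Irak3 differed on IC by −1.01, −0.57 and −0.42 in experiments 1, 2 and 3 (mean −0.66 ± 0.20, SE, n = 3; limma adjusted p = 0.28). On the control surface its differences were 0.094, −0.19 and −0.19. Cd14 had differences on the control surface of −1.10, −0.68 and −0.30 and on IC of −0.94, −0.76 and −0.23, with means of −0.70 ± 0.40 and −0.65 ± 0.40 (SE, n = 3). Myd88 differed on IC by −0.15, −0.29 and −0.24. Tlr4 differed least among the surface receptors, by −0.097 on the control surface (95% interval −0.45 to 0.25) and −0.091 on IC (95% interval −0.44 to 0.26).

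Genes of the monocyte list differed in both directions on IC. On IC, Adgre1, the gene of the macrophage marker F4/80, differed between Card9-/- and WT cells by −2.00, −0.94 and 0.17 in experiments 1, 2 and 3, and Csf1r, the receptor for macrophage colony-stimulating factor, by −1.06, −0.86 and −0.19. Ccr2, a chemokine receptor of monocytes, differed the other way, by 0.094, 0.18 and 0.75. Of the 10 measured genes of the list, 8 had a mean below 0 and 2 above, 3 were below 0 and 1 above 0 in 3 of 3 experiments, and 3 lower and 1 higher were under the unadjusted level. The summed linear signals on IC were 1057 to 4218 in WT and 1113 to 2407 in Card9-/- cells. Adgre1, Csf1r and Ccr2 were picked after their values were seen. The B cell list, of a cell type known to express Tlr7 and Tlr9, had summed signals on IC of 407 to 3589 in WT and 447 to 5038 in Card9-/- cells. The part of monocytes in the lower Tlr1 and Tlr9 signals was not tested.

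**Figure D3:**
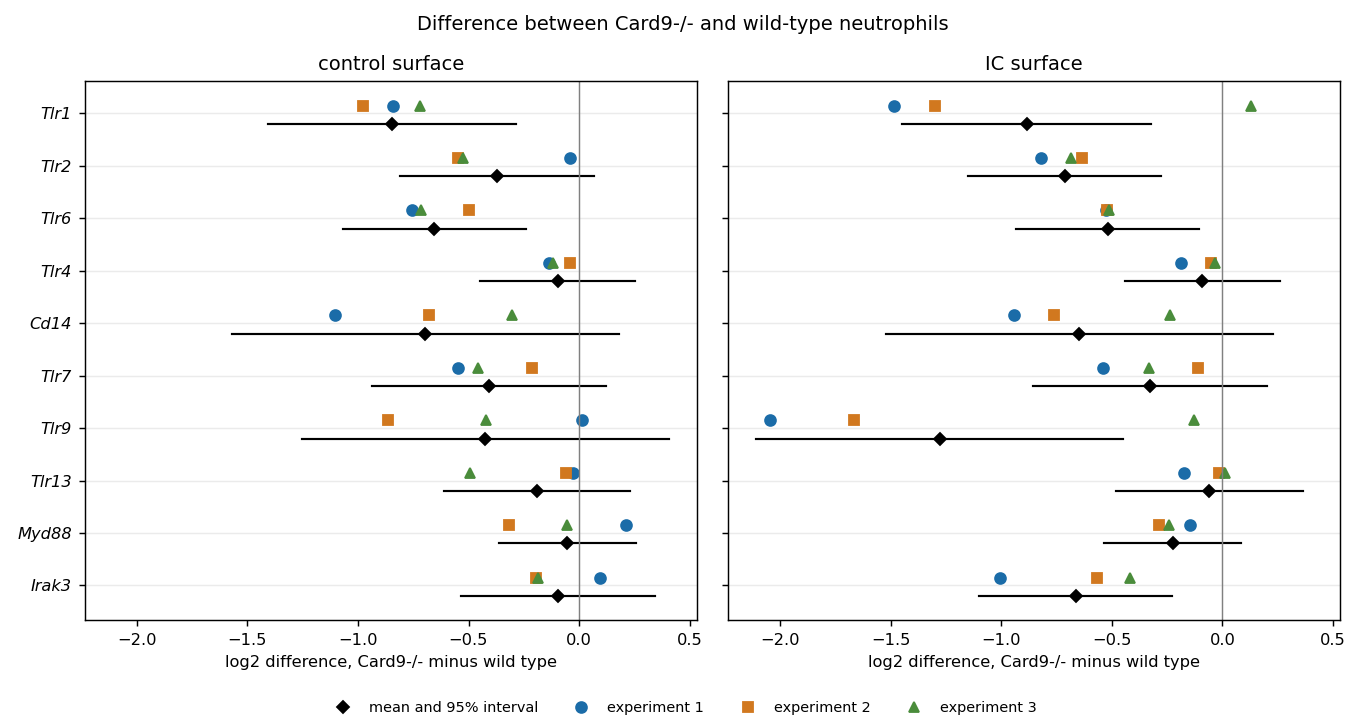
Log2 difference between Card9-/- and WT cells (horizontal axis) for the 10 genes on the control surface (left) and on IC (right). Colored points are the 3 experiments, diamonds their means and lines the 95% intervals of limma. All 10 means lie left of 0 on both surfaces, and on IC the points of Tlr6 fall together at −0.53 to −0.51 while those of Tlr9 spread from −2.04 to −0.13.

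Of 54 other genes listed for the same pathway, 48 were measured, and none passed the adjusted threshold in any of the 5 comparisons. Irak4, Traf3, Ripk1, Tlr5, Tlr11 and Il1rl1 were not analysed here. The medians of the 48 genes were 0.0012 for IC in WT cells, −0.042 for IC in Card9-/- cells, 0.018 for the difference of the responses, −0.086 for the genotypes on the control surface and −0.032 on IC. Those of the 10 genes were 0.30, 0.17, −0.017, −0.39 and −0.58. On IC, 27 of the 48 were lower and 21 higher in Card9-/- cells, with 9 lower and 1 higher under the unadjusted level.

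Among receptors outside the 10, Tlr3, Tlr8 and Tlr12 were measured. Tlr8, a relative of Tlr7 that was picked after its values were seen, was higher in Card9-/- cells on IC by 1.70, 0.61 and 0.087 (mean 0.80 ± 0.37, SE, n = 3; limma adjusted p = 0.548). Ly96, which encodes MD-2, the partner of TLR4, differed on IC by −0.80, 0.28 and −0.31 and had no direction shared by 3 experiments in any comparison. Cnpy3, a chaperone of Toll-like receptors, was lower on IC in each experiment of both genotypes, by a mean of −0.40 ± 0.12 in WT and −0.30 ± 0.12 in Card9-/- cells (SE, n = 3; limma adjusted p = 0.43 and 0.9998).

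Of the adaptors and kinases, Tirap, which brings MyD88 to TLR2 and TLR4, had mean genotype differences of −0.26 on the control surface and −0.25 on IC. Tirap was higher in Card9-/- cells in experiment 1 and lower in experiments 2 and 3. Its control signals were 9.53, 10.03 and 9.12 in WT and 9.81, 9.80 and 8.27 in Card9-/- cells. On IC they were 9.77, 10.09 and 8.42 in WT and 9.86, 9.87 and 7.79 in Card9-/- cells. Traf6, the ubiquitin ligase downstream of the IRAK kinases, had mean genotype differences of 0.042 on the control surface and 0.012 on IC. Irak2, a kinase that acts with MyD88, was lower in Card9-/- cells on the control surface by a mean of −0.57 ± 0.19 (SE, n = 3; limma adjusted p = 0.954). Its signals on IC were also lower in Card9-/- cells, at 9.74, 10.11 and 9.03 against 10.76, 10.90 and 9.80 in WT cells. Ticam2, which encodes the adaptor TRAM of TLR4, had IC differences of 0.36 ± 0.12 in WT and −0.059 ± 0.12 in Card9-/- cells (SE, n = 3). The responses of Ticam2 differed by −0.42 (95% interval −0.79 to −0.053; limma adjusted p = 0.9992). Ube2n, the ubiquitin-conjugating enzyme that works with TRAF6, was higher on IC in Card9-/- cells by 0.17, 0.31 and 0.26.

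Of the transcription factors, Irf7, which acts downstream of TLR7 and TLR9, was higher on IC by 0.37 ± 0.10 in WT and 0.34 ± 0.10 in Card9-/- cells (SE, n = 3; limma adjusted p = 0.41 and 0.9998). It was lower in Card9-/- cells by −0.42 on the control surface, and its mean signals on IC were 8.83 in WT and 8.37 in Card9-/- cells. Irf5, which also acts with MyD88, differed between the genotypes on IC by −1.47, −1.55 and −0.64 (mean −1.22, limma adjusted p = 0.106). The inhibitors of NF-κB signalling Tnfaip3 and Tnip1 had the smallest adjusted p values of the list. On IC, Tnfaip3, the gene of A20, differed between Card9-/- and WT cells by −2.07, −2.24 and −1.27 (mean −1.86, limma adjusted p = 0.0951). Tnip1, whose product binds A20, differed between these groups by −1.54, −1.13 and −1.22 (mean −1.30, limma adjusted p = 0.0695). Tnip1 passed the threshold without experiment 1 (limma adjusted p = 0.0458) and not without experiment 2 or 3 (limma adjusted p = 0.542 and 0.113). Card9 itself did not pass on IC without experiment 2, so that setting says little about a single gene. The response of Tnfaip3 to IC differed between the genotypes by −2.44, −1.03 and −0.40 (mean −1.29, limma adjusted p = 0.9992), and by −0.71 without experiment 1. For Tnip1 these differences were −1.25, −0.43 and −0.59 (mean −0.76, limma adjusted p = 0.9992). Tollip, another inhibitor, was lower in Card9-/- than in WT cells on the control surface by −0.33 ± 0.11 (SE, n = 3; limma adjusted p = 0.954). Its mean signals on IC were 9.30 in WT and 9.07 in Card9-/- cells.

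**Figure D4:**
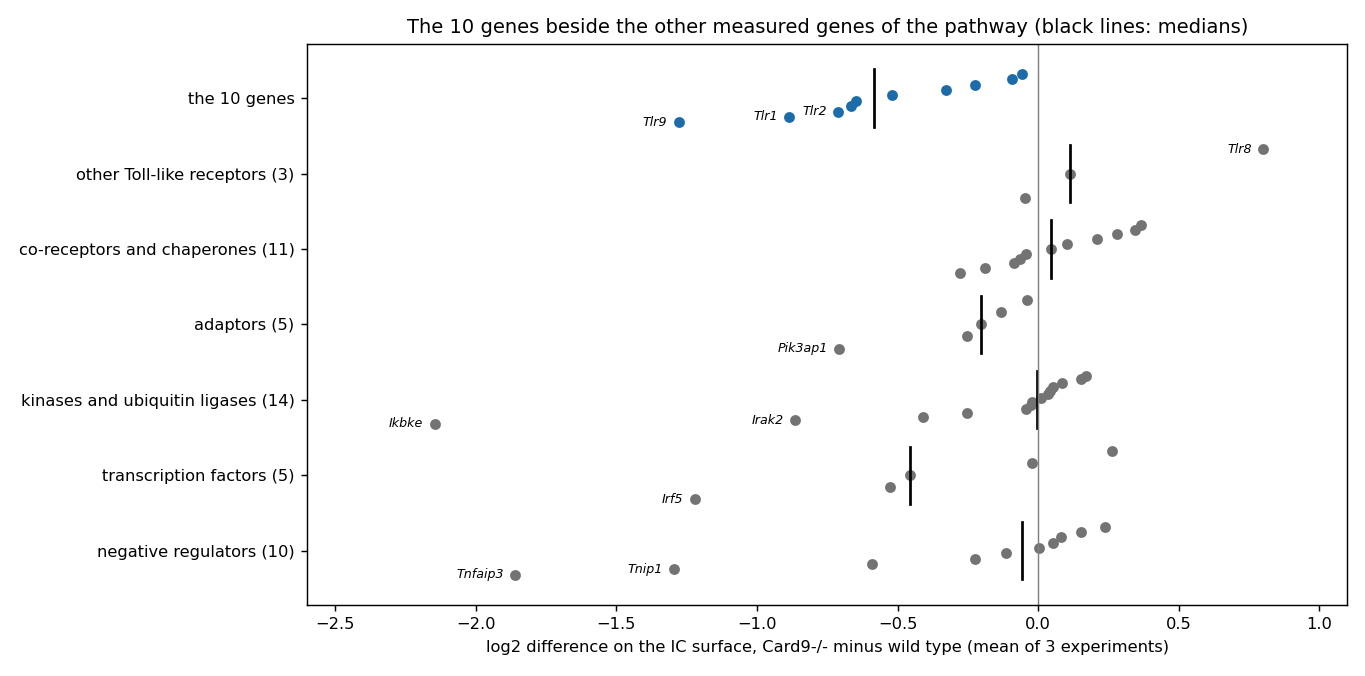
Mean log2 difference between Card9-/- and WT cells on IC (horizontal axis) for the 10 genes and for the other measured genes of the pathway by role, with the number of genes in parentheses. Each point is a gene, black lines are medians, and genes beyond 0.7 in either direction are named. The median of the 10 genes, −0.58, and that of the transcription factors, −0.46, lie furthest to the left.

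Which genes followed the same course over the arrays was described by Pearson correlation after the mean of each experiment was taken out, over 12 arrays and 19937 clusters, with no test. These correlations share the arrays, and with 12 arrays many clusters reach high values. Among the 10 genes themselves all pairs correlated above 0, from 0.31 for Tlr13 with Cd14 to 0.90 for Tlr6 with Tlr7, with 0.87 for Tlr2 with Tlr9 and 0.794 for the neighbours Tlr1 and Tlr6. Tlr9 was most like Ikbke (r = 0.987), which encodes a kinase of interferon-regulatory factors, and like Rel (0.982), a subunit of NF-κB. Ikbke, with Tbk1 and Tnip1 named below, was also among the other pathway genes, and had their lowest mean genotype difference on IC (−2.15). The IC signals of Ikbke were 9.63, 10.61 and 7.33 in WT and 6.25, 7.85 and 7.05 in Card9-/- cells. Cd14 was most like Acod1 (0.978), the enzyme of itaconate synthesis, and like the chemokine gene Cxcl2 (0.963). Tlr2 was most like Lrrc25 (0.979) and like Nlrp3 (0.969), the inflammasome sensor. Tlr1 was most like Tbk1 (0.973), a kinase related to that of Ikbke, and Irak3 had Tnip1 (0.939) among its first 3. Tlr6 was most like Ppard (0.969), a nuclear receptor, Tlr4 like Csf1 (0.954), a macrophage growth factor, and Tlr7 like Fuca2 (0.954) and Tpp1 (0.945), a lysosomal protease. Tlr13 was most like Golph3 (0.97), and Myd88 had the lowest first value, 0.93 with Ggct.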

How the data were processed

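Log2 signals of an Affymetrix mouse gene array, as deposited by the authors, were used (12 arrays, 150 ng RNA each). How these values were summarized and normalized is not stated in the sources used here. Of 35556 rows, 6612 control rows were left out and 28944 transcript clusters tested, without a filter on signal. Gene symbols came from the platform's annotation, and promoter sequences from RefSeq (GRCm38.p6). A linear model of the 4 groups and the experiment number, as a fixed block, was fitted in limma 3.58.1 under R 4.3.3 by lmFit and eBayes (6 residual and 5.40 prior degrees of freedom). Deviations from group means correlated at 0.671 to 0.867 within an experiment number and −0.727 to 0.355 between numbers, and the labels give the numbers as experiments. Because the deviations within a group cancel out, values between numbers are pushed down by construction and are not separate evidence for the pairing. p values were two-sided, adjusted by Benjamini-Hochberg within each of the 5 comparisons, with a threshold of 0.05. The fit was tested on simulated data. The number of arrays limits the precision. The study's methods used a factorial analysis of variance with treatment and genotype as factors. As an alternative, the 4 groups were fitted here without a block or moderation and tested on the same 5 comparisons (the factorial test). Of these comparisons, only the difference in responses is a term of the study's analysis, its interaction. The other alternatives were no block, a random block, other scalings, limma-trend, robust eBayes, a filter at the median signal, only the arrays compared, and leaving out each experiment.

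All 10 genes were reported. Of the pathway list, the 3 genes with the smallest p and the same direction in all 3 experiments were named for each comparison, with Ly96, Traf6 and Tirap. For each gene the 3 most alike clusters were listed. The genes and lists were chosen with earlier results of these data known. Python 3.11.15 with pandas 2.3.3 made the summaries, and matplotlib 3.10.9 the plots.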

Additional observations from a re-analysis of the deposited data

How the results depend on the processing

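None of the 10 genes passed the threshold in any comparison under 10 of the 12 alternative settings. The exceptions were on IC between the genotypes, where 1 gene passed when only the arrays compared were fitted (Tlr2, adjusted p = 0.0433) and 1 without experiment 3 (Tlr1, adjusted p = 0.0118), so that 0 to 1 passed when an experiment was left out. The smallest adjusted p of the 10 genes in the other 4 comparisons, over all settings, was 0.0863, on the control surface. Of 600 alternative values of the genes, 20 had another sign, 16 of them with an experiment left out, all for differences of 0.20 or less in size. The lower Card9-/- means kept their sign in all settings, except that of Myd88 on the control surface without experiment 2.

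Counts over all clusters moved more. For IC in WT cells (0 clusters), a random block gave 7, and leaving out an experiment gave 1 to 51, with 51 (50 of them lower) without experiment 1. For the genotypes on the control surface (11, all lower), no replicate block gave 1, robust eBayes 6, only the arrays compared 7, the factorial test 0 and leaving out an experiment 2 to 7. For the genotypes on IC (47, of which 34 lower), no replicate block gave 0, a random block 105 (85 lower), median centring 22 (19 lower), only the arrays compared 173 (101 lower), the factorial test 0 and leaving out an experiment 3 to 116, with 24 of 76 lower without experiment 1. The 0 counts of the factorial test stood beside 130 and 270 clusters at an unadjusted p under 0.05, and that without a block beside 207. The cause of these shifts was not tested. The block changed no call of the 10 genes. A mean over several clusters of a gene could not be formed, since each gene had 1 cluster.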
